A study of Mus musculus with 7 samples.

Results

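The genes described here are the core splicing factors of mouse hematopoietic stem cells (HSCs), the blood-forming cells of the bone marrow, taken by name from a table of 33298 genes. The name rule took Srsf genes with a number, Hnrnp genes, Sf3a and Sf3b genes, Snrp genes, U2af genes and numbered Prpf genes. It found 68 genes, of which 11 encode SR proteins, 20 hnRNP proteins, 9 SF3 subunits, 13 Snrp products, 2 U2AF subunits and 13 PRPF factors. Snrp1c-ps2, a pseudogene by its name, was left out, while Snrpert, annotated as a processed pseudogene, kept to the rule and stayed. Polyadenylated RNA was sequenced from about 800 sorted cells per library, from bone marrow at 12 weeks of age under homeostatic conditions. Cells were sorted as lineage-negative, Sca-1+, c-Kit+, CD48- and CD150+, the surface phenotype of long-term HSCs. All libraries came from mice with both Dek alleles floxed. Dek_fl mice (4 libraries) carried no recombinase, and Dek_cKO mice (3 libraries) also carried Tie2-Cre, which is active in endothelial and blood cells from embryonic life, so its activity is not limited to adult HSCs. Dek encodes a chromatin-binding protein. No label says that each library came from its own animal, so p-values speak of spread among libraries, which may be technical.

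Splicing removes introns from pre-mRNA in the spliceosome, which is built from small nuclear RNAs and their proteins. SR proteins bind exonic sequences through RNA recognition domains and mostly favour the use of nearby splice sites, while hnRNP proteins coat nascent RNA and often oppose it. The U2AF heterodimer recognises the end of the intron, the SF3A and SF3B complexes hold the U2 particle on the branch point, the Sm proteins form the ring around small nuclear RNAs, and the PRPF proteins belong to the tri-snRNP and to later steps. SF3B1, SRSF2 and U2AF1 are recurrently mutated in human myelodysplastic syndromes, which arise in HSCs.

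Values are FPKM, fragments scaled by transcript length and by library depth. Read totals recovered from the values ran from 4209152 to 26951515 in Dek_fl and from 4422645 to 12540431 in Dek_cKO, and 8575 genes were above 0 in Dek_fl replicate 4 against 14291 to 19950 in the other libraries. Dek was at 76.96, 118, 143 and 26.05 FPKM in Dek_fl replicates 1 to 4 and at 9.599, 8.404 and 12.7 FPKM in Dek_cKO replicates 1 to 3. The groups did not overlap, and an exact permutation test of the means, two-sided over 35 splits, gave p = 0.0571. This is the smallest p that the test can give for 4 against 3 libraries, so it could not fall under 0.05. In limma the log2 fold change of Dek was -2.81 (SE 0.962), with an unadjusted p of 0.00853 and an adjusted p of 0.9999. The deposited Dek value of Dek_cKO replicate 3 has 5 decimals where 4 are usual, stands for 405.8 reads, which is not a whole number, and would be 126.6 FPKM if multiplied by 10, so family sums and medians are also given without this library. Such values are not limited to it: 43 genes had values that do not stand for whole reads, among them Mtor in every library. Of 12 HSC markers, 7 were at 1 FPKM or more in every library, with the 12 summing to 410 to 740 FPKM in Dek_fl and 355 to 786 FPKM in Dek_cKO. Among these, Gata2, a transcription factor of HSCs, was at 31.5, 73.1, 114 and 124 FPKM in Dek_fl. It was lower in Dek_cKO, at 7.52, 18.3 and 12.3 FPKM (unadjusted p 0.0126, limma), but its values in Dek_cKO replicates 1 and 3 do not stand for whole reads. Gata2 was the only 1 of the 12 with an unadjusted p under 0.05, and no tested gene had an adjusted p under 0.05. On the other lists, Nkg7 and the megakaryocyte marker Gp9 were higher in Dek_cKO (unadjusted p 0.0497 and 0.0499, limma). Slamf1, which encodes the CD150 used in the sort, was at 0 to 1.804 FPKM, and Cd48, whose product the sort was set to exclude, reached 206 FPKM in Dek_fl replicate 2. Neutrophil and monocyte markers summed to 809 to 2434 FPKM in Dek_fl and 592 to 9697 FPKM in Dek_cKO, where Elane alone was at 5393 FPKM in Dek_cKO replicate 3. The summed ranges in Dek_fl and Dek_cKO were 164 to 272 and 34.1 to 255 FPKM for Cd48 and Flt3, 79.1 to 143 and 46.5 to 123 FPKM for erythroid markers, and 0 to 66.9 and 2.03 to 69.2 FPKM for B cell markers. They were 39.2 to 577 and 451 to 1345 FPKM for T and NK cell markers, most of it Nkg7, 112 to 1240.5 and 111 to 412 FPKM for megakaryocyte markers, and 8.35 to 22.8 and 14.3 to 48.5 FPKM for endothelial markers. Of the other T and NK cell markers, Cd3e, Cd3g, Cd8a and Klrb1c were at 0 to 5.404 FPKM. Cd4 was at 48.6 FPKM in Dek_cKO replicate 2, at 4.27 FPKM in Dek_fl replicate 4 and at 0 to 0.185 FPKM in the other libraries. No listed marker was at 0 in every library. In bulk libraries, fewer cells of a type and less RNA per cell cannot be told apart.

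Promoters of broadly expressed genes are often rich in CpG, and 3 windows of splicing factor genes are shown because their genes are described below by their values: Srsf2 had the smallest p among all members, Srsf7 the highest level, and Sf3b2 was the member higher in Dek_cKO with no overlap between groups. Each runs from 250 bases before to 50 bases after a RefSeq transcript start (GRCm38.p6), read 5′ to 3′ on the gene's strand, which is minus for all 3. The windows are chr11:116853045-116853344 for Srsf2, chr17:80207256-80207555 for Srsf7 and chr19:5295406-5295705 for Sf3b2. Capitals mark the CCAAT box and TATAAA in Srsf2, the ETS core CCGGAAG and the NRF1 core GCATGCGC in Srsf7, and CCAAT and CCGGAAG in Sf3b2.
Srsf2: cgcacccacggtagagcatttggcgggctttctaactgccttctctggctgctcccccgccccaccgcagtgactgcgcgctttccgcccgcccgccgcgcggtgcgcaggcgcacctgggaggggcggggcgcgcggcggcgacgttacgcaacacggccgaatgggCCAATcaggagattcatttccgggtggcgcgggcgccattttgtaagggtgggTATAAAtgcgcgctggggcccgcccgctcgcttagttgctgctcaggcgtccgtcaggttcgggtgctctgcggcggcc
Srsf7: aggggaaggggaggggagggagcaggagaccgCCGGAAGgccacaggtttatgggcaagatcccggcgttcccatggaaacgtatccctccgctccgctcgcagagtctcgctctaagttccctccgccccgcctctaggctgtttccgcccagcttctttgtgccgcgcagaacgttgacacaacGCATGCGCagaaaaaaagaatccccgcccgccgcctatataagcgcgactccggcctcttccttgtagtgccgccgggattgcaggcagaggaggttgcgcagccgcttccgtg
Sf3b2: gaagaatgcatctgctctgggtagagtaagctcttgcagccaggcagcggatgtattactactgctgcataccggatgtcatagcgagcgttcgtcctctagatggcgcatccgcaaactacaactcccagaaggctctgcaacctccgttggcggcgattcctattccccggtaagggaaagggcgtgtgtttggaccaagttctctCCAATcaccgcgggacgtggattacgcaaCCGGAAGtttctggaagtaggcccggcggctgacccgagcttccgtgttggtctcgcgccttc

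Of the 68 members, 58 were matched to 79 such windows. The median ratio of observed to expected CpG was 0.920 in these windows, 0.778 in windows of the tested genes and 0.384 in all windows, while the GC content was 60.3%, 60.7% and 52.7%. CCGGAAG, the core bound by ETS factors, was found on either strand in 31.6% of the members' windows, 19.7% of the tested genes' windows and 8.86% of all windows. CCAAT, the box bound by NF-Y, was in 48.1%, 37.7% and 37.4%. GCATGCGC was in 3.80%, 5.79% and 2.71%, the YY1 core AAGATGGCG in 2.53%, 3.60% and 1.40%, and TATAAA in 8.86%, 6.69% and 13.6%. The families differed in these letters, without a test. CCGGAAG was in a window of 6 of the 7 matched SF3 genes and of 2 of the 18 matched hnRNP genes, whereas CCAAT was in a window of 13 of those 18 hnRNP genes. A match in the letters is not evidence of a factor bound there.

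Splicing factor transcripts were among the more abundant of the HSC libraries. Of the 68 members, 26 had a mean over the 7 libraries at or above 83.6 FPKM, the 90th percentile of the tested genes, and 57 were at or above the median of 14.1 FPKM. By mean over the 7 libraries, the median gene of a family was highest among the SR genes. The 20 hnRNP genes together took more of the reads than the 11 SR genes, except in Dek_fl replicate 3 (0.729% against 0.777%). The SR genes were led by Srsf7 at 576 FPKM, Srsf2 at 314 FPKM and Srsf5 at 301 FPKM. Srsf1, the best studied SR protein in human cells, was at 3.003 FPKM, and Srsf12 at 0.0462 FPKM, listed at 0 in 6 libraries. Among hnRNP genes, Hnrnpa2b1 stood at 416 FPKM and Hnrnpk at 347 FPKM, and Hnrnpu, a nuclear matrix protein, at 9.71 FPKM. These FPKM appear to have been set by the longest annotated transcript of each gene, which lowers the level of genes with a long isoform, such as Hnrnpr with 21452 bases.

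Genes for proteins that join the same particle in equal numbers did not have equal FPKM. The transcript lengths behind these FPKM also differed, from 669 bases for Snrpe to 3036 for Snrpd3 in the Sm ring. In the SF3B complex they ran from 1774 bases for Sf3b6 to 6195 for Sf3b1. The part of length in the differences was not tested. The 7 genes of the Sm ring ranged from 335 FPKM for Snrpb to 40.0 FPKM for Snrpd3, with Snrpe at 287, Snrpd1 at 173, Snrpg at 119, Snrpd2 at 109.5 and Snrpf at 69.9 FPKM. The exons of Snrpf lie to 85.4% under another gene, so its reads cannot be assigned surely. In the SF3B complex, Sf3b1 and Sf3b6 were at 138 and 134 FPKM, Sf3b4 and Sf3b2 at 98.4 and 96.4 FPKM, and Sf3b5 and Sf3b3 at 52.2 and 27.7 FPKM. The PRPF genes were lower, the highest being Prpf38b with 53.4 FPKM and Prpf39 with 47.1 FPKM. Prpf19, the ubiquitin ligase that leads a large complex of the active spliceosome, was at 1.23 FPKM and was under 1 FPKM in 5 of the 7 libraries.

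Of the 68 members, 64 passed the filter on low values (at least 1 FPKM in at least 3 libraries); Srsf12, Snrpn, Prpf19 and Prpf40b did not. The tested members varied less between libraries than most tested genes. Their median SD within groups was 0.811 on the log2(FPKM + 1) scale, against 1.51 over all 10260 genes tested. At a mean of 20 FPKM or more the medians were 0.743 for 52 members and 1.38 for all genes, and at 100 FPKM or more they were 0.713 for 23 members and 0.838 for all genes. These cuts do not match levels. The median level at 20 FPKM or more was 84.1 FPKM for members and 44.1 FPKM for all genes. At 100 FPKM or more it was 221 and 169 FPKM, so level is not separated from family here. In each library, 1 or 2 of the 64 tested members were under 1 FPKM (1.56% to 3.13%), while 11.5% to 38.8% of all tested genes were. Members are more abundant than most tested genes, and at a mean of 20 FPKM or more the shares were 0% to 1.92% of 52 members and 1.58% to 18.2% of all genes. The highest library was less than 4 times the lowest for 24 of the 64 (37.5%), and for 6.94% of all tested genes; at a mean of 20 FPKM or more it was so for 44.2% of members and 15.5% of all genes. The steadiest by this ratio were Snrpb at 1.99, Snrpc at 2.105 and Hnrnpa2b1 at 2.497. At the other end, Sf3b4, Snrpa, Srsf4, Prpf18 and Prpf3 had log2 SDs of 3.54, 2.34, 2.26, 2.24 and 2.06, each with a value near or at 0 in some library.

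**Figure D1:**
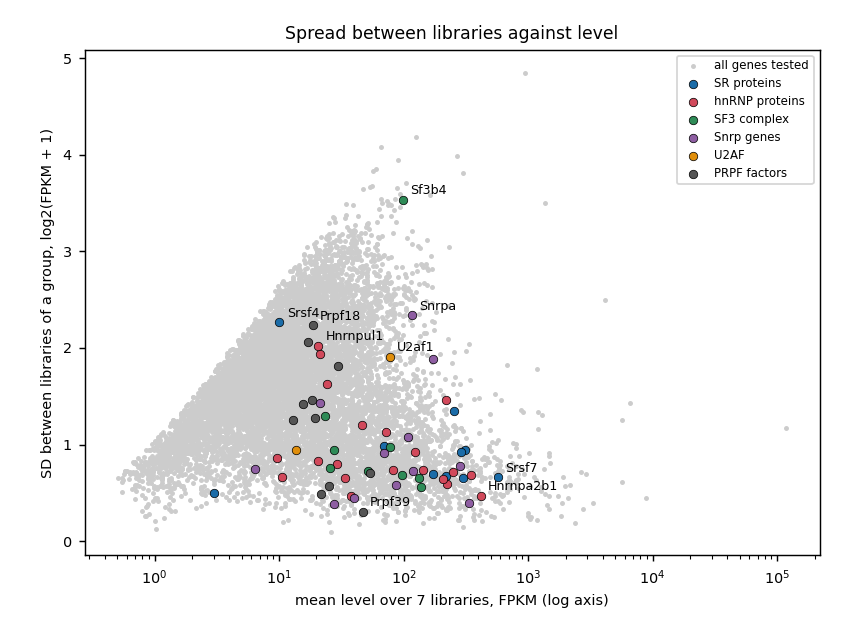
SD within groups on the log2(FPKM + 1) scale (vertical axis) against mean FPKM over the 7 libraries (horizontal log axis), with each tested gene as a grey point and the splicing factor genes in colour by family. Most members lie in the lower part of the cloud at their level, and Sf3b4, at 3.54, stands highest among them.

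By library, the 68 members together took 1.91%, 2.002%, 2.05% and 1.83% of the recovered reads in Dek_fl replicates 1 to 4 and 2.15%, 1.91% and 1.58% in Dek_cKO replicates 1 to 3. The lowest share was that of Dek_cKO replicate 3 and the highest that of Dek_cKO replicate 1, so the Dek_fl libraries lay within the range of Dek_cKO. SR genes summed to 2022, 2546, 2863 and 2018 FPKM in Dek_fl and to 2523, 2278 and 1204 FPKM in Dek_cKO. Dek_cKO replicate 3 was the lowest, and the other Dek_cKO libraries were among the Dek_fl values; Dek_cKO replicate 3 also held the highest Elane and Mpo values, whose part in this was not tested. The hnRNP genes summed to 2432, 2735, 2391 and 1863 FPKM in Dek_fl and to 2792, 2018 and 2144 FPKM in Dek_cKO, with overlapping groups. The ratio of SR to hnRNP FPKM was 0.831, 0.931, 1.20 and 1.08 in Dek_fl and 0.903, 1.13 and 0.561 in Dek_cKO, so Dek_cKO replicate 3 stood below the other 6 libraries. The group means of the summed FPKM were 630.0 ± 123 (SD, n = 4) for Dek_fl against 732 ± 213 (SD, n = 3) for Dek_cKO in the SF3 genes, and 1412 ± 360.0 against 1375 ± 371 in the Snrp genes. They were 101 ± 54.5 against 78.7 ± 52.9 in the U2AF genes, and 276 ± 39.4 against 289 ± 65.4 in the PRPF genes. For each of these 4 families the ranges of the groups overlapped. Without Dek_cKO replicate 3 the Dek_cKO means were 2401 for SR, 2405 for hnRNP, 774 for SF3, 1174 for Snrp, 62.6 for U2AF and 289.8 for PRPF genes. The difference from Dek_fl then went from -360.6 to 38.3 for SR genes and from -37.2 to -238 for Snrp genes. Total FPKM also differed between libraries, from 484155 in Dek_cKO replicate 1 to 724098 in Dek_cKO replicate 3. As a share of total FPKM, Snrp genes averaged 0.234% in Dek_fl and were at 0.216%, 0.249% and 0.245% in Dek_cKO replicates 1 to 3. For SR genes the Dek_fl mean was 0.411%, and the Dek_cKO values were 0.521%, 0.435% and 0.166%.

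**Figure D2:**
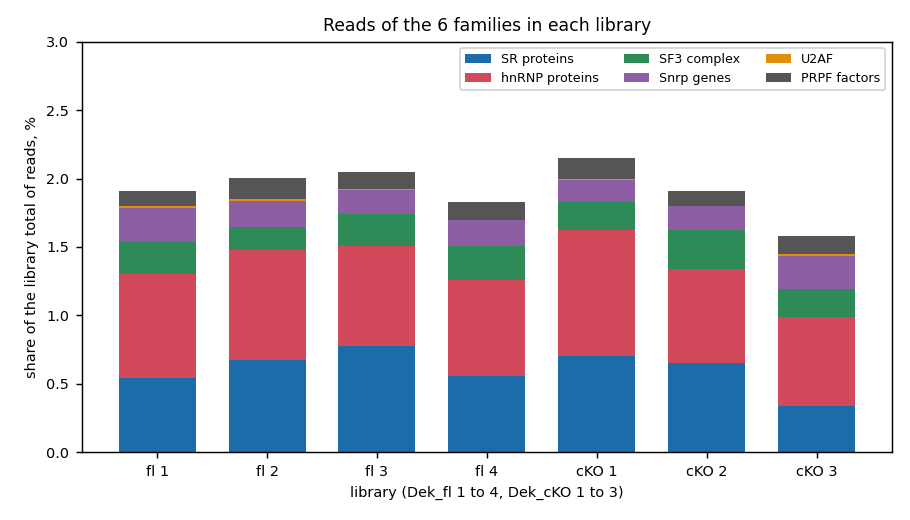
Share of each library's recovered reads taken by the splicing factor genes, in percent, as stacked bars from 0 with a colour for each of the 6 families, for Dek_fl 1 to 4 and Dek_cKO 1 to 3. SR and hnRNP genes make up most of every bar, whose height runs from 1.58% in Dek_cKO replicate 3 to 2.15% in Dek_cKO replicate 1.

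The comparison of Dek_cKO with Dek_fl asked whether loss of Dek goes with other levels of splicing factor transcripts in HSCs. In limma on log2(FPKM + 1), 0 of the 64 tested members and 0 of the 10260 tested genes (0%) had an adjusted p under 0.05, and voom on the recovered reads also gave 0. At an unadjusted p under 0.05, only 1 member passed, Srsf2, against 3.94% of all genes; it was lower, as were 1.81% of all genes, and no member was higher, against 2.12%. In voom at that level 3 members passed, Srsf2, Hnrnpk and Prpf4, against 5.35% of all genes. The groups did not overlap for 3 members, against 4.94% of all genes. Sf3b2 was higher in Dek_cKO, against 2.86% of all genes, and Srsf10 and Prpf39 were lower, against 2.09%. With 64 members tested, these counts are near the background. The log2 fold change was above 0 for 31 members and below 0 for 33, with a median of -0.01 against 0.05 over all tested genes, and exceeded 1 in size for 21.9% of members against 35.9% of all genes. Members are more abundant than most tested genes, and at a mean of 100 FPKM or more these shares were 8.70% of 23 members and 15.8% of all genes. The median standard error of the members was 0.885 on the log2 scale, against 1.25 over all tested genes, so an adjusted p that misses the threshold does not show that a level was the same.

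**Figure D3:**
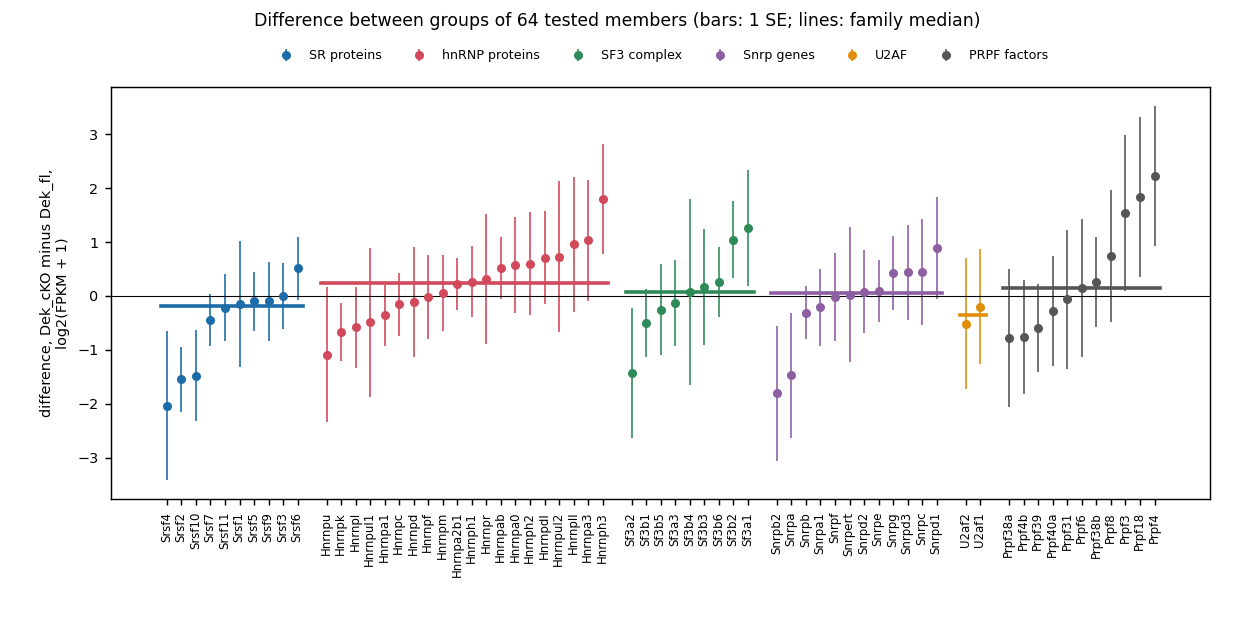
Log2 fold change of Dek_cKO against Dek_fl on the log2(FPKM + 1) scale for each tested splicing factor gene, grouped by family, with bars of 1 standard error and a line for each family's median. Values lie on both sides of 0 from -2.03 for Srsf4 to 2.22 for Prpf4, and none has an adjusted p under 0.05.

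The family medians of the log2 fold change were small beside these errors. Over all tested genes, 52.0% had a log2 fold change above 0. For SR genes the median was -0.18, with 1 of 10 above 0 and 9 below, and it was 0.09 without Dek_cKO replicate 3 and -0.59 without Dek_cKO replicate 2. Some of these 9 were close to 0, such as Srsf3 at -0.0012 (SE 0.607) and Srsf5 at -0.10 (SE 0.541). For hnRNP genes the median was 0.25, with 12 above 0 and 8 below, and 0.35 without Dek_cKO replicate 3. For SF3 genes it was 0.07 (5 above, 4 below) and -0.04 without that library, and for Snrp genes 0.05 (7 above, 5 below) and -0.14 without it. Both U2AF genes were below 0, with a median of -0.35 that was 0.24 without Dek_cKO replicate 2 and -0.81 without Dek_cKO replicate 3. For PRPF genes it was 0.15 (6 above, 5 below) and -0.19 without Dek_cKO replicate 3. Only the hnRNP median kept its sign when any single library was left out, at 0.07 to 0.41.

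Among the SR genes, Srsf2 (chromosome 11, 116849901 to 116853094, GRCm38 as for all positions here) encodes an activator of exons that is mutated in human myeloid neoplasms. Srsf2 had 337, 538, 537 and 258 FPKM across Dek_fl against 318, 49.1 and 158 FPKM across Dek_cKO. Dek_cKO replicates 2 and 3 lay below all Dek_fl libraries, and Dek_cKO replicate 1 lay among them. Mean levels were 418 ± 142 FPKM (SD, n = 4) for Dek_fl against 175 ± 135 FPKM (SD, n = 3) for Dek_cKO, a log2 fold change of -1.55 (SE 0.612), which had an unadjusted p of 0.0199 and an adjusted p of 0.9999 in limma. Without Dek_cKO replicate 2 the log2 fold change was -0.83. In voom the unadjusted p was 0.00667 and the adjusted p 0.621. The exons of Srsf2 overlap those of Mettl23 and Mfsd11 over 25.3% of their length, and no source used here says whether strand was used in counting.

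Srsf7 (chromosome 17, 80200080 to 80207307), an SR protein with a zinc knuckle, was the most abundant of all 68 genes, with 387, 630.0, 756 and 736 FPKM across Dek_fl against 847, 248 and 427 FPKM across Dek_cKO. The lowest and the highest library were both Dek_cKO, and the log2 fold change was -0.44 (SE 0.481). Srsf10 (chromosome 4, 135855747 to 135869908), which in human cells acts as a splicing repressor when dephosphorylated, had 79.3, 77.9, 74.1 and 132 FPKM across Dek_fl against 9.09, 73.4 and 42.5 FPKM across Dek_cKO. All 3 Dek_cKO values were below all 4 Dek_fl values, although 73.4 FPKM in Dek_cKO replicate 2 was next to 74.1 FPKM in Dek_fl replicate 3. The log2 fold change of Srsf10 was -1.48 (SE 0.843), and -0.65 without Dek_cKO replicate 1. Srsf4 (chromosome 4, 131873617 to 131901706), a long SR protein, had 0, 0.165, 23.9 and 44.9 FPKM across Dek_fl against 0, 1.02 and 0.592 FPKM across Dek_cKO. It was above 20 FPKM in Dek_fl replicates 3 and 4 only and near or at 0 in the other 5 libraries of both groups, so its log2 fold change of -2.03 (SE 1.39) came from those libraries; a gene annotated as Gm12992 overlaps 43.0% of its exons.

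**Figure D4:**
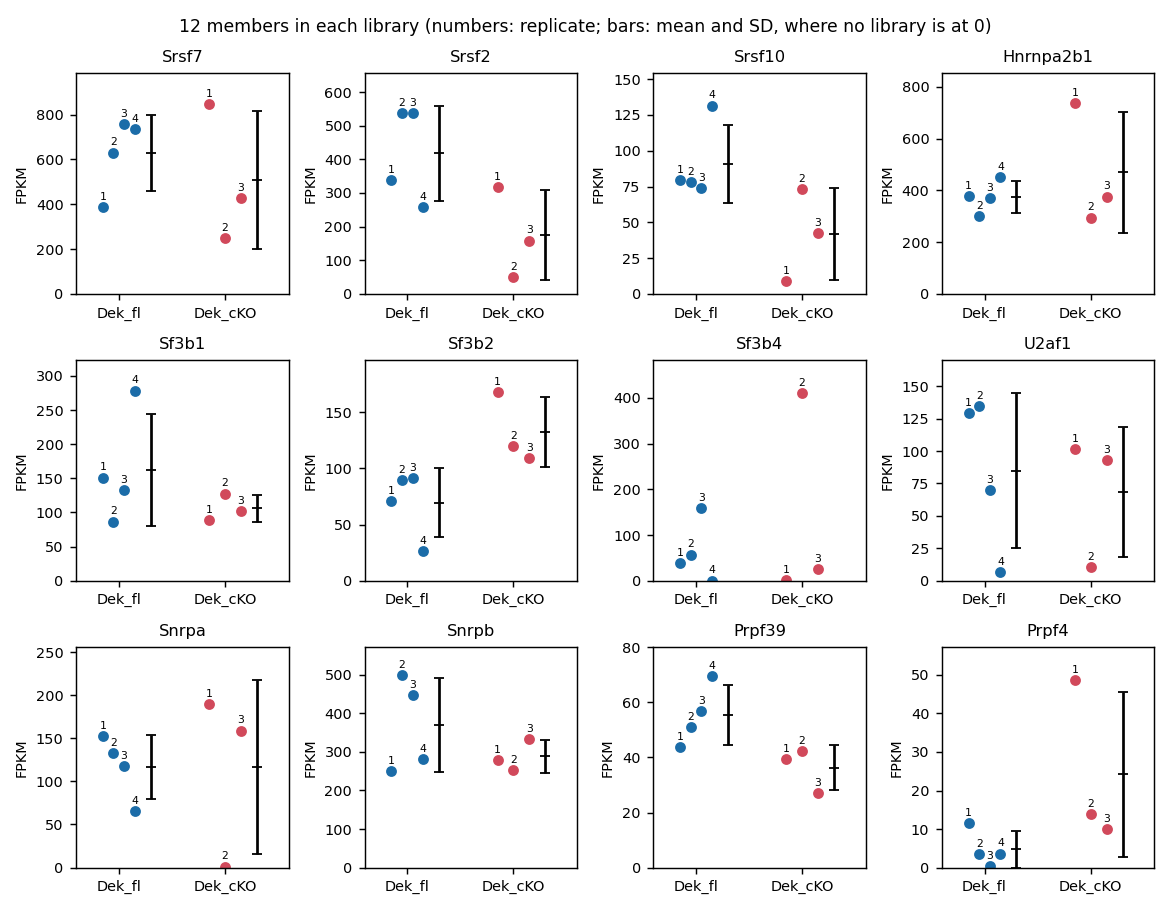
FPKM (vertical axes, from 0) of 12 splicing factor genes in Dek_fl and Dek_cKO, with a point for each library labelled by replicate and bars for the mean and SD, which are left out for Sf3b4 because a library is listed at 0. Srsf10 and Prpf39 are lower and Sf3b2 is higher in all Dek_cKO libraries, and the other genes overlap between groups.

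Among the hnRNP genes, Hnrnpa2b1 (chromosome 6, 51460932 to 51469894), which binds RNA to repress exons and sort transcripts, had 379, 301, 370.2 and 452 FPKM across Dek_fl against 736, 295 and 376 FPKM across Dek_cKO. Dek_cKO replicates 1 and 2 were the highest and the lowest library, with a log2 fold change of 0.22 (SE 0.475). Hnrnpk (chromosome 13, 58391142 to 58403343), a poly(C)-binding protein lost in some human leukemias, had 313, 702, 473 and 201 FPKM across Dek_fl against 329, 163 and 252 FPKM across Dek_cKO. The groups overlapped, with a log2 fold change of -0.67 (SE 0.535) and an unadjusted p of 0.223 in limma and 0.0314 in voom. Hnrnph3 (chromosome 10, 63014664 to 63024217), a relative of the G-run binding protein Hnrnph1, had 9.55, 7.56, 72.5 and 19.1 FPKM across Dek_fl against 34.2, 106 and 78.3 FPKM across Dek_cKO. Dek_fl replicate 3 was within the range of Dek_cKO and the other Dek_fl libraries were below it, with a log2 fold change of 1.80 (SE 1.02). Hnrnpa3 (chromosome 2, 75659261 to 75669407), a paralog of Hnrnpa1, had 4.84, 16.2, 11.6 and 24.95 FPKM across Dek_fl against 45.8, 17.6 and 22.9 FPKM across Dek_cKO. Dek_cKO replicate 1 was the highest and the remaining values overlapped, with a log2 fold change of 1.03 (SE 1.13). Many hnRNP and Snrp genes have processed copies elsewhere in the genome, and reads shared with those are uncertain.

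U2AF recognises the acceptor site, with U2af1 reading its AG and U2af2 the pyrimidine tract. U2af1 (chromosome 17, 31647081 to 31658892) had 129, 134, 69.95 and 6.34 FPKM across Dek_fl against 102, 10.5 and 93.02 FPKM across Dek_cKO. The low values were those of Dek_fl replicate 4, with 26 reads, and Dek_cKO replicate 2, with 42 reads, so both groups held a library far below the rest. The log2 fold change was -0.20 (SE 1.07), 0.84 without Dek_cKO replicate 2 and -1.17 without Dek_fl replicate 4. U2af2 (chromosome 7, 5062143 to 5079938) had 17.7, 3.95, 20.97 and 21.8 FPKM across Dek_fl against 6.06, 7.22 and 17.8 FPKM across Dek_cKO. It was lowest in Dek_fl replicate 2, the groups overlapped, and the log2 fold change was -0.51 (SE 1.22).

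In the SF3 complex, Sf3b1 (chromosome 1, 54985169 to 55027481), the branch point clamp and the splicing gene most often mutated in human myelodysplasia, had 151, 86.6, 133 and 279 FPKM across Dek_fl against 88.8, 127 and 102 FPKM across Dek_cKO. Dek_fl replicate 4 was the highest and the other 6 libraries of both groups were mixed, with a log2 fold change of -0.50 (SE 0.627). Sf3b2 (chromosome 19, 5273932 to 5295455), which contacts the branch point region, had 71.03, 89.8, 91.3 and 26.01 FPKM across Dek_fl against 168, 119.5 and 109 FPKM across Dek_cKO. Every Dek_cKO value was above every Dek_fl value, and the means were 69.5 ± 30.4 FPKM (SD, n = 4) for Dek_fl against 132 ± 31.5 FPKM (SD, n = 3) for Dek_cKO. The log2 fold change of Sf3b2 was 1.04 (SE 0.711), with an unadjusted p of 0.158 and an adjusted p of 0.9999 in limma, and 0.63 without Dek_fl replicate 4. Sf3b6 (chromosome 12, 4817544 to 4827659), the subunit that touches the branch point adenosine, had 145, 135, 159.6 and 57.1 FPKM across Dek_fl against 141, 88.8 and 213 FPKM across Dek_cKO. Only Dek_fl replicate 4 was below 80 FPKM, and the log2 fold change was 0.26 (SE 0.644).

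Sf3a1 (chromosome 11, 4160350 to 4182541), the subunit of SF3A that binds both of the others, had 7.58, 11.3, 16.7 and 27.6 FPKM across Dek_fl against 56.9, 40.3 and 19.4 FPKM across Dek_cKO. Dek_cKO replicates 1 and 2 were the highest libraries and replicate 3 lay among Dek_fl, with a log2 fold change of 1.26 (SE 1.07). Its partner Sf3a2 (chromosome 10, 80798198 to 80804924) had the opposite sign, with 17.6, 43.6, 52.4 and 9.89 FPKM across Dek_fl against 29.2, 8.07 and 2.45 FPKM across Dek_cKO. Dek_cKO replicates 2 and 3 were the lowest libraries and replicate 1 lay among Dek_fl, with a log2 fold change of -1.42 (SE 1.21). Sf3b4, another branch point subunit, chosen for mention after its values were seen, had 37.8, 56.98, 158 and 0 FPKM across Dek_fl against 0.614, 411 and 24.6 FPKM across Dek_cKO. These values stood for 7 reads in Dek_cKO replicate 1 and 3478 in Dek_cKO replicate 2, so neither group was uniform.

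Among the Snrp genes, Snrpb (chromosome 2, 130171414 to 130179403), which encodes the Sm protein B, had 251, 498, 448 and 282 FPKM across Dek_fl against 278, 253 and 334 FPKM across Dek_cKO. It had the smallest ratio of highest to lowest library of the tested members, and its log2 fold change was -0.31 (SE 0.487). Snrpe (chromosome 1, 133603871 to 133610291), another Sm ring member, had 537, 137, 181 and 299 FPKM across Dek_fl against 164, 339 and 351 FPKM across Dek_cKO. Dek_fl libraries held both the highest and the lowest value, with a log2 fold change of 0.10 (SE 0.572). Snrpd1, also of the ring, had 342, 150.4, 141 and 7.93 FPKM across Dek_fl against 74.5, 236 and 261 FPKM across Dek_cKO. Its log2 fold change of 0.89 (SE 0.942) was -0.22 without Dek_fl replicate 4, the library with the lowest value.

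The U1 and U2 particles have proteins of their own. Snrpa (chromosome 7, 27187005 to 27196271), a protein of the U1 particle that binds a stem loop of its RNA, had 152, 132, 118 and 65.7 FPKM across Dek_fl against 189.7, 1.204 and 159 FPKM across Dek_cKO. Dek_cKO replicate 2 held 9 reads, and the other Dek_cKO libraries were above every Dek_fl library, so the log2 fold change of -1.47 (SE 1.16) became 0.63 without that library. Snrpb2 (chromosome 2, 143063039 to 143072853), the U2B″ protein, had 41.4, 18.4, 21.3 and 22.97 FPKM across Dek_fl against 1.79, 2.41 and 41.01 FPKM across Dek_cKO. Dek_cKO replicates 1 and 2 were the lowest libraries while replicate 3 was level with the highest Dek_fl value, with a log2 fold change of -1.80 (SE 1.26). Snrpn, an imprinted gene for a B-like Sm protein used mainly in neurons, was chosen for mention after its values were seen and was not tested. It was listed at 0 in Dek_fl replicates 1, 2 and 4 and in Dek_cKO replicate 3, at 0.107 FPKM in Dek_fl replicate 3, at 1.31 FPKM in Dek_cKO replicate 2, and at 29.9 FPKM or 369 reads in Dek_cKO replicate 1. Its exons overlap those of Snurf, among others, over 34.1% of their length.

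Of the PRPF genes, Prpf8 (chromosome 11, 75486816 to 75509449), the large protein at the centre of the catalytic core, had 4.21, 31.3, 3.83 and 32.7 FPKM across Dek_fl against 12.7, 22.8 and 29.4 FPKM across Dek_cKO. The groups overlapped, and the log2 fold change was 0.74 (SE 1.22). Prpf39 (chromosome 12, 65036333 to 65063386), a U1-associated protein, had 43.6, 51.03, 56.9 and 69.4 FPKM across Dek_fl against 39.3, 42.4 and 26.97 FPKM across Dek_cKO. All Dek_cKO values were below all Dek_fl values by a small margin, with means of 55.3 ± 10.9 FPKM (SD, n = 4) for Dek_fl against 36.2 ± 8.16 FPKM (SD, n = 3) for Dek_cKO. The log2 fold change of Prpf39 was -0.60 (SE 0.817), with an unadjusted p of 0.471 and an adjusted p of 0.9999 in limma. Prpf38b (chromosome 3, 108902805 to 108911727), related to a tri-snRNP activation factor, had 62.98, 36.1, 23.6 and 78.9 FPKM across Dek_fl against 33.8, 74.9 and 63.6 FPKM across Dek_cKO, with overlapping groups and a log2 fold change of 0.26 (SE 0.833).

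The 3 PRPF genes of smallest p, which belong to the tri-snRNP or the second step, had low and scattered values. Prpf4 (chromosome 4, 62408797 to 62426990), of the U4/U6 particle, had 11.5, 3.498, 0.334 and 3.599 FPKM across Dek_fl against 48.7, 13.8 and 10.0002 FPKM across Dek_cKO. Dek_fl replicate 1 lay within the range of Dek_cKO and the other Dek_fl libraries below it, with a log2 fold change of 2.22 (SE 1.302) and an unadjusted p of 0.104 in limma, against 3.503 and 0.0219 in voom. Its partner in that particle, Prpf3 (chromosome 3, 95830124 to 95855885), had 1.86, 11.5, 17.4 and 0 FPKM across Dek_fl against 75.5, 2.62 and 10.6 FPKM across Dek_cKO. Dek_cKO replicate 1 was far above the other 6 libraries, which overlapped, and the log2 fold change was 1.54 (SE 1.45). Prpf18 (chromosome 2, 4622058 to 4652113), a second-step factor, had 1.62, 0.0907, 6.38 and 18.5 FPKM across Dek_fl against 76.6, 0.899 and 26.7 FPKM across Dek_cKO. Dek_cKO replicates 1 and 3 were the highest and replicate 2 was among the lowest, with a log2 fold change of 1.83 (SE 1.49).

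Other genes that act with these factors were taken from a list of 135. Of these, 133 were found and 126 tested; in limma 0 had an adjusted p under 0.05, and 2 were higher (2.12% of all genes) and 4 lower (1.81%) at unadjusted p under 0.05. The groups did not overlap for 6 higher (Snrnp40, Snrnp200, Lsm3, Coil, Ddx5 and Sfpq), against 2.86% of all genes, and 2 lower (Phf5a and Pnn), against 2.09%. The median log2 fold change was 0.14. These genes varied more between libraries than the 64 members, with a median log2 SD within groups of 1.23 against 0.811 and a median level of 38.97 against 61.6 FPKM. Per list the median was 0.25 for 15 snRNP-specific proteins, 0.69 for the 7 genes of the LSm ring, 0.16 for 13 genes of the SMN complex and snRNP assembly, and 0.70 for 11 helicases. It was -0.29 for 17 genes of the Prpf19 complex and catalytic steps, -0.49 for 9 genes of the minor spliceosome, 0.48 for 19 exon junction complex and SR-related genes, 0.64 for 7 SR protein kinases, and -0.02 for 28 RNA-binding regulators. Phf5a, a small SF3B subunit, had 169, 146, 163 and 140.0 FPKM across Dek_fl against 98.03, 0 and 139.8 FPKM across Dek_cKO. Dek_cKO was below Dek_fl in every library, in replicate 3 by less than 1 FPKM, with a log2 fold change of -2.69 (SE 1.23). Sfpq, a paraspeckle protein that also binds the spliceosome, had 9.23, 5.405, 8.15 and 67.3 FPKM across Dek_fl against 126, 190.0 and 111 FPKM across Dek_cKO. The Dek_cKO libraries were all higher, with a log2 fold change of 3.30 (SE 0.984), but the Sfpq values of Dek_fl replicates 1 to 3 do not stand for whole reads, so this difference is uncertain.

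A further 4 of these genes had an unadjusted p under 0.05, of which only Coil had groups that did not overlap. Puf60, a U2AF-like factor, had 173, 306, 106 and 36.7 FPKM across Dek_fl against 35.8, 14.1 and 67.3 FPKM across Dek_cKO, with a log2 fold change of -1.85 (SE 0.845). Smn1, the assembly factor whose human counterpart is lost in spinal muscular atrophy, had 14.97, 35.3, 63.9 and 7.602 FPKM across Dek_fl against 0, 0 and 18.9 FPKM across Dek_cKO. Its log2 fold change was -3.14 (SE 1.396). Coil, the Cajal body scaffold, had 0, 0.246, 4.35 and 1.13 FPKM across Dek_fl against 66.1, 7.75 and 4.396 FPKM across Dek_cKO, with a log2 fold change of 2.92 (SE 1.32). Xab2, a component of the active spliceosome, had 0.539, 25.5, 45.1 and 15.6 FPKM across Dek_fl against 0, 3.64 and 0 FPKM across Dek_cKO, with a log2 fold change of -3.00 (SE 1.41). Each of these 6 genes had an adjusted p of 0.9999 in limma.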

How the data were processed

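The authors deposited 1 table of FPKM for 7 libraries, mapped to groups by the titles; no batch is labelled. The build was mm10 and the tools named are HTSeq, Cufflinks 2.1.1 and Bowtie 0.12.9, per the submitters' processing notes; which of them made the FPKM, and from which annotation, is not stated there. Reads and library totals were recovered from FPKM and transcript length (a value counted as whole within rounding to 4 decimals plus 0.003 reads, for genes of 30 reads or more in 5 libraries or more); 61 members were whole, 0 were not and 7 were not assessed. Exons of 26 members overlap another gene, by over 10% for 10.

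Dek_cKO was compared with Dek_fl in limma 3.58.1 (R 4.3.3; trend, robust moderation) on log2(FPKM + 1), for genes of 1 FPKM or more in 3 libraries or more, two-sided, with Benjamini-Hochberg adjustment over 10260 genes; this scale understates changes of low genes. The limma step was tested on simulated data. The members, lists and tests were chosen with earlier results of these data known. Named were, per family, the 2 members of highest mean FPKM and the 3 of smallest p, plus Sf3b1, Srsf2, U2af1 and Prpf8, and other splicing genes at an unadjusted p under 0.05. The Sm, SF3B and other members given by level were added. Alternatives were pseudocounts of 0.1 and 0.5, no filter and a filter of 5 FPKM, median-of-ratios scaling, a replicate block, leaving out each library or the genes with values that are not whole reads, and voom on recovered reads, chosen after seeing the data. Positions are of GENCODE M21 (GRCm38); promoter windows are RefSeq's. Software was matplotlib 3.10.9, scipy 1.17.1, pandas 2.3.3, numpy 2.4.6 and Python 3.11.15.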

Additional observations from a re-analysis of the deposited data

Results flagged for a closer look

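Dixon's test of the most extreme library was run on 37 groups of 4 Dek_fl values, where chance marks about 1 in 20, and 5 stood out. Srsf10 was high in Dek_fl replicate 4, at 131.5 FPKM. Sf3b6 was low in the same library, at 57.1 FPKM. The summed FPKM of all members was also low there, at 5976. U2af2 was low in Dek_fl replicate 2, at 3.95 FPKM. The summed FPKM of the Snrp genes was high in Dek_fl replicate 1, at 1947. Sums depend on the total FPKM of a library. As shares of it, Snrp genes were at 0.269%, 0.238%, 0.237% and 0.190% in Dek_fl replicates 1 to 4. All members were at 1.03%, 1.45%, 1.54% and 0.880%.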

How the results depend on the processing

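No member and no gene had an adjusted p under 0.05 under any of the 15 alternatives, and the smallest adjusted p of a named member was 0.621, in voom. At an unadjusted p under 0.05 there were 404 genes, against 548 in voom, 567 without Dek_fl replicate 4 and 288 without Dek_cKO replicate 2. In voom the PRPF median was 0.72 and the SR median -0.67, against 0.15 and -0.18. Of 26 named members, 19 kept the sign of their log2 fold change throughout, but 15 of these moved by over 1.5 times when single libraries were left out, such as Srsf7 from -0.90 to -0.01, Hnrnpk from -0.98 to -0.38, Sf3a2 from -2.24 to -0.67, Snrpb2 from -3.06 to -1.10, Prpf18 from 0.69 to 3.37 and Prpf3 from 0.36 to 2.56. The other 7 changed sign when single libraries were left out: Hnrnpa2b1 ranged from -0.16 to 0.50, Sf3b6 from -0.073 to 0.58, Snrpe from -0.19 to 0.46, Snrpa from -2.59 to 0.63, Snrpd1 from -0.22 to 1.54, U2af1 from -1.17 to 0.84 and Prpf38b from -0.050 to 0.59. With the replicate number as a block, Sf3b6 was -0.073 and Snrpd1 -0.22, 509 genes had an unadjusted p under 0.05 and 0 were called; Dek_fl replicate 4 has no partner there, and same-numbered libraries did not deviate together (r of -0.03, -0.07 and 0.04), so the number is not shown to pair them. Leaving out single libraries moved the Dek difference between -102.4 and -63.4 FPKM. Apart from the block, which leaves out a library, the cause of each change was not tested. Few reads stand behind some values, such as 4 for Srsf12 in Dek_fl replicate 1. This also held for abundant members, such as Snrpa, with 9 reads in Dek_cKO replicate 2 and a mean of 117 FPKM. The part of depth in this was not tested.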

Other observations

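Libraries were no more alike within a group than between groups in splicing factor transcripts. Across the 64 tested members, Pearson's r of log2(FPKM + 1) averaged 0.682 over the 9 pairs of libraries within groups and 0.695 over the 12 pairs between groups. Over all 10260 tested genes the averages were 0.541 and 0.553. These values are across genes, which are not independent replicates.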
